A study of Mus musculus with 6 samples.

Results

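The transcription factors that set and hold beta cell identity were examined in mouse pancreatic islets, the hormone-secreting cell clusters of the pancreas. Of 10 listed genes (Pdx1, Mafa, Nkx6-1, Nkx2-2, Neurod1, Isl1, Pax6, Foxa2, Rfx6 and Insm1), 8 had probe sets to which the array's annotation gives that symbol alone. These 8 genes were read by 16 of the 45101 probe sets. Mafa and Rfx6 were not analysed here. The study looked for what drives islet cells to multiply in the pregnant mother. Collagenase digestion was used to free the islets. In the non-pregnant group (3 arrays) the time is given as 0 days post coitum (dpc), and in the pregnant group (3 arrays) as 12.5 dpc. The labels name no strain, age, genotype or agent for either group. Whether each array stands for its own animal or for a pool is not stated, so the p-values reflect scatter among these arrays that may be purely technical.

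Beta cells are held in their state by a network of DNA-binding proteins that bind their own and each other's regulatory regions as well as those of the insulin gene. Pdx1 and Nkx6-1 are homeodomain proteins that in the adult islet mark mainly beta cells, with Pdx1 also in delta cells. Nkx2-2, Isl1, Pax6, Neurod1 and Insm1 act in several or all islet endocrine cell types, and Foxa2 is a forkhead protein that opens chromatin throughout the pancreatic epithelium. In pregnancy the placental lactogens and prolactin drive beta cells to divide and to secrete more insulin.

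Promoters of 3 genes are printed to show the letters that such proteins read, in Foxa2, the member that fell, and in Iapp and Slc2a2, genes on which members are known to act. Each run is the 250 bases before the annotated start, from RefSeq (build GRCm38.p6), 5′ to 3′ on the gene's strand. Capitals mark TAAT, the core bound by many homeodomain proteins, CATCTG, an E-box of the kind Neurod1 binds, and TGTTTAC, a forkhead sequence, each on either strand. In Iapp, 2 of the TAAT matches overlap each other on opposite strands. The Foxa2 run lies at chr2:148046970-148047219 (minus strand), Iapp at chr6:142298175-142298424 (plus strand) and Slc2a2 at chr3:28697653-28697902 (plus strand).
Foxa2: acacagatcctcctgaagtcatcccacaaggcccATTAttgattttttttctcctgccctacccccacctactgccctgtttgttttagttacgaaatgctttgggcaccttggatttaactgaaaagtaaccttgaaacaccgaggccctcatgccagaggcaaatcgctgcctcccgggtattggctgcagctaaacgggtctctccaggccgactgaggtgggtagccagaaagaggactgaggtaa
Iapp: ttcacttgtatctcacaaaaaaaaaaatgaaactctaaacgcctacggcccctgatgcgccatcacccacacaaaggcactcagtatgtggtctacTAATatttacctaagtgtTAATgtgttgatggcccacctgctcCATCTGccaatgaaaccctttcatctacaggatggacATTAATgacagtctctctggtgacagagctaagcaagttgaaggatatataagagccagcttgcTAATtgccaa
Slc2a2: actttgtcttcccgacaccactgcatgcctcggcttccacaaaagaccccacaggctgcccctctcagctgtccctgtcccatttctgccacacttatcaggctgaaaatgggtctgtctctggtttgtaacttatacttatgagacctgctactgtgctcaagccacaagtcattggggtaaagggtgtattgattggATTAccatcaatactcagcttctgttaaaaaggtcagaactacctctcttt
Iapp held 5 TAAT and 1 CATCTG matches, and Foxa2 and Slc2a2 held 1 TAAT each. Of 32851 promoter windows of the same length in the mouse table, 54.9% held TAAT, 14.4% CATCTG and 3.17% TGTTTAC, and 8.91% held both TAAT and CATCTG. A match is a description of the letters and not a bound site. The table matched 8 of the 10 listed factors, and for 6 of these it held a window at the gene's 5′ end. TAAT was present in 3 of those 6 windows (Isl1, Pax6 and Foxa2), CATCTG and TGTTTAC in 0.

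The values are MAS5 signals, background-corrected brightnesses scaled by the authors so that every array has the same 2% trimmed mean of 500.003. The median signal of an array was 85.8 to 100.1 and the highest 51107.1 to 64109.3. The bright hormone genes of the islet were present (Gcg 44756.3 to 49731.8, Sst 45630.3 to 47950.9). Krt19, a duct keratin, was dim at 13.3 to 102.5. Other genes listed as duct markers were brighter (Krt7 4503.8 to 5701.2, Krt18 10353.4 to 13887.7, Epcam 4995.7 to 6860.7). Which cells gave these signals was not tested. The acinar gene Cela1, of the enzyme-secreting exocrine cells, ran from 14038.6 to 42854.6, so the samples also held exocrine RNA. Control probe sets for a bacterial transcript ran from 1.1 to 32.3. Differences were tested with limma on log2(signal + 16), with Benjamini-Hochberg adjustment over the 27022 probe sets in the top 60% by mean signal, and an adjusted p under 0.05 is called a rise or fall. All 16 probe sets of the factors passed that filter on signal.

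By their brightest probe sets, most of the measured beta cell factors at 12.5 dpc lay within a narrow range of their non-pregnant levels. Of the 8 genes only Foxa2 passed the test, a share close to the 11.9% called among all genes by their brightest probe set. Foxa2 fell to 0.817 of its non-pregnant signal, a call that depended on the processing. Of the 16 probe sets, 0 rose and 1 fell, which is 6.25%, where 9.57% of all tested probe sets were called (4.79% higher and 4.78% lower). At an unadjusted p under 0.05 in limma, 0 were higher and 3 lower, where 22.9% of all tested probe sets had such a p. Groups did not overlap in 3 of the 16 probe sets (18.8%), against 27.7% of all tested probe sets. With 1 value per gene, from its brightest probe set, the median log2 difference was -0.03 and that of all genes -0.04. The median absolute log2 difference was 0.05 for the 8 genes and 0.16 for all genes, with median standard errors (SE) of 0.06 and 0.12. For the 7 genes not called, the 95% intervals of the brightest probe set stayed within -0.23 and 0.23, and each of them included 0. Intervals of the dimmer probe sets of Neurod1 (-0.26 to -0.04) and Isl1 (-0.36 to -0.04) lay below 0, though neither was called. The counts for all probe sets depend on the scale, with 1294 higher and 1293 lower as reported and 1430 and 583 with each array centred on its median. With that centring 8 of the 16 log2 differences were negative, against 12 as reported, where 57.2% of all tested probe sets were negative. Counted by the brightest probe set, 5 of the 8 genes were negative as reported and 3 with that centring.

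**Figure D1:**
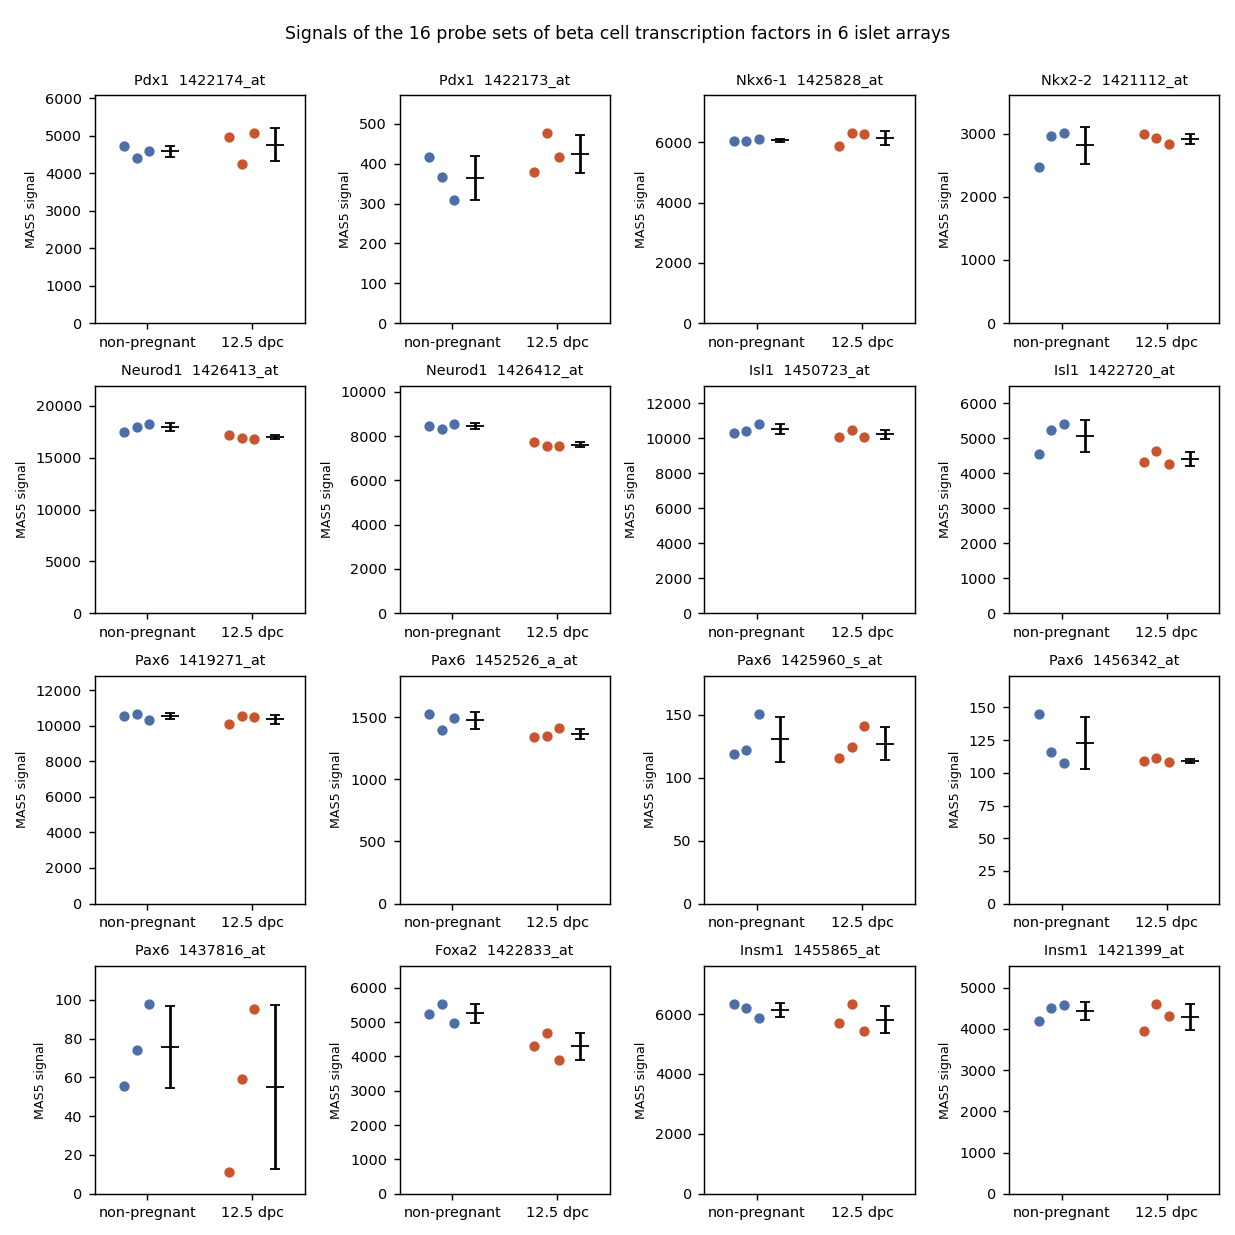
MAS5 signal (vertical axes, each from 0) of the 16 probe sets of 8 beta cell transcription factors in 3 non-pregnant and 3 pregnant (12.5 dpc) islet arrays; points are arrays, bars the mean ± SD. Groups do not overlap for Foxa2 and for both Neurod1 probe sets, and overlap in the other panels.

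**Figure D2:**
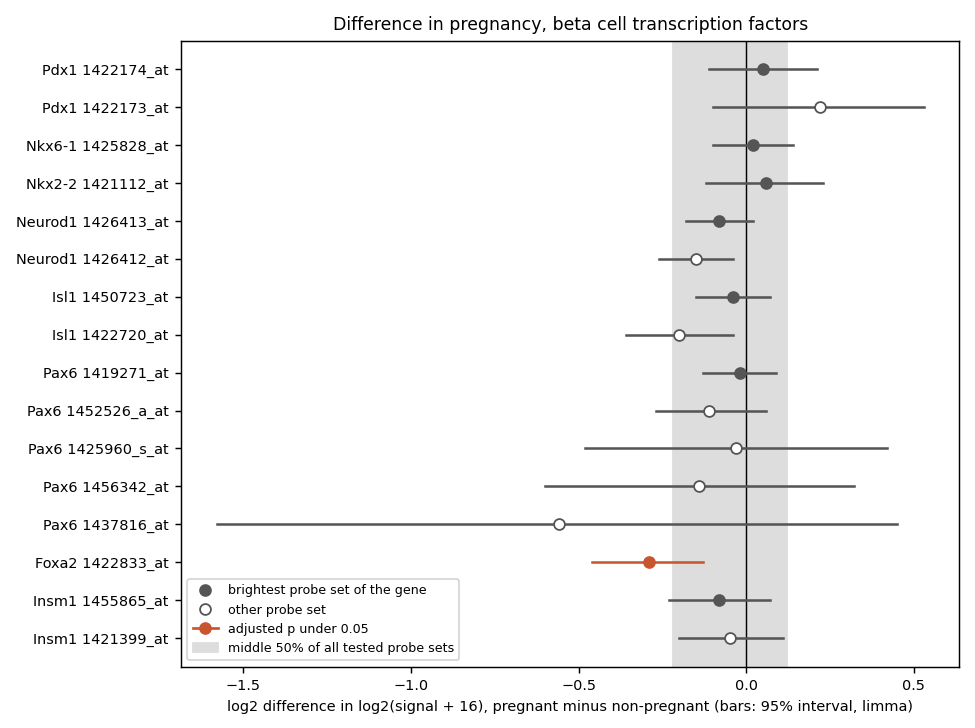
Log2 difference in log2(signal + 16), pregnant minus non-pregnant (horizontal axis), with limma's 95% interval for each of the 16 probe sets; filled points are the brightest probe set of a gene and the grey band spans -0.22 to 0.12, the middle 50% of all tested probe sets. Foxa2 at -0.29 is the only coloured (called) probe set, and the widest interval is that of the dimmest Pax6 probe set.

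Foxa2, which opens chromatin for other factors and acts on Pdx1 and on the genes of the ATP-sensitive potassium channel, had signals of 5246.1, 5526.6 and 4986.8 in non-pregnant islets and 4289.3, 4690.2 and 3895.4 in pregnant islets. Every pregnant array lay below every non-pregnant array, with the lowest value in pregnant replicate 3. The mean went from 5253 ± 270.0 (SD, n = 3) to 4292 ± 397 (n = 3), a log2 difference of -0.29 ± 0.07 (SE; 95% interval -0.46 to -0.13; limma adjusted p = 0.029). Its absolute size was at the 71.0 percentile of all tested probe sets. Leaving out non-pregnant replicate 1 gave an adjusted p of 0.054, and leaving out non-pregnant replicate 2 gave 0.099. Leaving out pregnant replicate 1 gave 0.093, and leaving out pregnant replicate 3 gave 0.11. It was 0.22 with each array centred on its median, 0.059 with no filter and 0.19 without the variance trend, and the log2 difference ran from -0.36 to -0.22 over all settings.

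Levels of markers of other cells are given beside this fall, where 11.9% of all genes were called by their brightest probe set. Of 20 acinar markers tested, genes of the enzyme-secreting exocrine cells, 0 rose and 18 fell, and their summed signal was 198558 to 376011 on non-pregnant and 115688 to 189615 on pregnant arrays. Of 12 stellate and fibroblast markers 0 rose and 3 fell (the matrix genes Col1a2, Col3a1 and Dcn), with sums of 16562 to 17188 and 11648 to 14841. Of 10 immune markers 1 rose and 0 fell, and the median log2 difference was -0.09. The riser was the complement gene C1qa, whose mean went from 3504.9 to 7299.5, and the summed signals of 6849 to 7346 and 10029 to 11035 include it. Of 11 endothelial markers 0 rose and 1 fell, the receptor Flt1. Of 7 genes listed as duct markers 2 rose (Krt18 and Epcam) and 1 fell (Krt7). Krt19 was not called (limma adjusted p = 0.26), and whether duct cells gave the Krt18 and Epcam signals was not tested. Of 9 markers of other islet cells 0 rose and 2 fell, Ghrl and Irx1. The marker genes were named here after their values were seen. No marker matched to a probe set was at 0 on every array. The part of these cells in the Foxa2 result was not tested. In these bulk samples fewer cells of a type and less RNA per cell cannot be told apart.

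**Figure D3:**
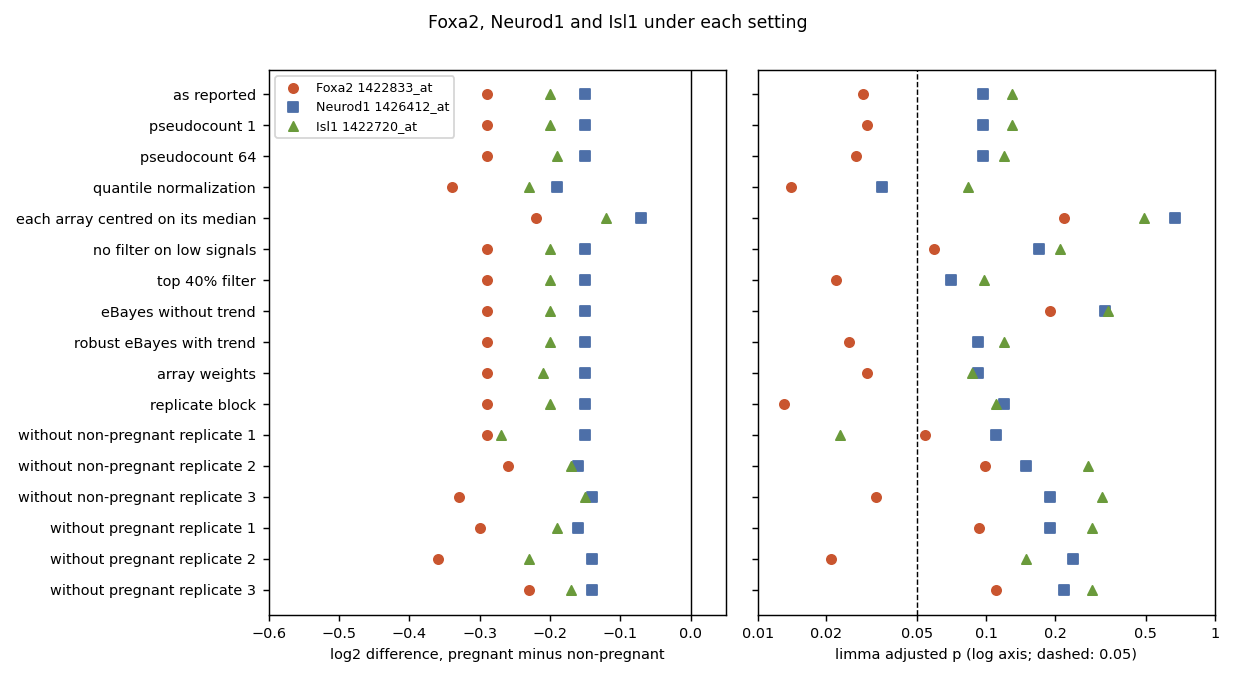
Left, log2 difference (pregnant minus non-pregnant) and right, limma adjusted p on a log axis with 0.05 dashed, for Foxa2 and for the dimmer probe sets of Neurod1 and Isl1 under each setting (vertical axis). The sign was negative for all 3 under every setting shown; Foxa2 lies left of the dashed line in some settings, and Neurod1 and Isl1 in 1 each.

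Pdx1 and Nkx6-1, the factors most closely tied to the beta cell, were not called. Pdx1 activates the insulin and Slc2a2 genes. Its brighter probe set read 4729.9, 4413.9 and 4580.9 in non-pregnant and 4949.4, 4250.8 and 5059.4 in pregnant islets, so the pregnant arrays lay on both sides of the non-pregnant ones. The log2 difference was 0.05 ± 0.07 (95% interval -0.11 to 0.21; adjusted p = 0.74). The dimmer Pdx1 probe set had 417.5, 367.8 and 308.5 against 379.8, 476.5 and 417.6 (0.22 ± 0.14, adjusted p = 0.42), with overlapping groups.

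Nkx6-1, which holds beta cells apart from alpha cells, had the smallest spread within a group of the brightest probe sets. It read 6035.2, 6047.4 and 6112.2 without pregnancy, a coefficient of variation of 0.682%, and 5884.6, 6303.1 and 6280.4 with it. Pregnant arrays lay below and above the narrow non-pregnant range. The log2 difference was 0.02 ± 0.06 (95% interval -0.10 to 0.14; adjusted p = 0.88), and -0.04 with quantile normalization.

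The other homeodomain factors, Nkx2-2, Isl1 and Pax6, were not called in any of their 8 probe sets. Nkx2-2, needed for endocrine cells to form and for beta cells to stay beta cells, read 2477.6, 2962.5 and 3007.3 against 2989.7, 2926.9 and 2832.5. Non-pregnant replicate 1 was the low array, and the log2 difference was 0.06 ± 0.08 (95% interval -0.12 to 0.23; adjusted p = 0.75), and -0.03 without that array. The LIM-homeodomain protein Isl1, which works in a complex with the bridging protein Ldb1, read 10281.6, 10405.4 and 10834.9 against 10087.1, 10482.3 and 10065.7 in its brighter probe set (-0.04 ± 0.05, adjusted p = 0.70; 0.03 with each array centred on its median). Its dimmer probe set had 4545.1, 5230.9 and 5421.9 against 4336.3, 4627.2 and 4259.9. Non-pregnant replicate 1 fell within the pregnant range there, and the log2 difference was -0.20 ± 0.07 (95% interval -0.36 to -0.04; adjusted p = 0.13). Without that array it was -0.27 and passed (adjusted p = 0.023). The other 2 probe sets with an unadjusted p under 0.05 were Foxa2 and the dimmer one of Neurod1.

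Pax6, the paired-domain factor that acts on the glucagon and insulin genes, was read by 5 probe sets. The brightest had 10567.4, 10668.3 and 10339.9 in non-pregnant and 10079.9, 10553.3 and 10472.0 in pregnant islets (log2 difference -0.02 ± 0.05; 95% interval -0.13 to 0.09; adjusted p = 0.85; 0.05 with each array centred on its median). The next had 1527.7, 1399.1 and 1495.7 against 1338.6, 1349.9 and 1409.5 (-0.11 ± 0.08, adjusted p = 0.45). Groups overlapped in both. The other 3 had mean signals of 55.2 to 131 and log2 differences of -0.56 to -0.03, and the adjusted p-values were 0.53 to 0.96. The dimmest of them read 11.2 in pregnant replicate 1, a signal within the range of the bacterial control probe sets.

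Neurod1, the basic helix-loop-helix factor that binds the E-box of the insulin gene, was lower on every pregnant than on every non-pregnant array in both probe sets, but neither passed. The brighter read 17491.5, 17979.8 and 18283.6 against 17160.9, 16909.7 and 16792.6 (log2 difference -0.08 ± 0.05; 95% interval -0.18 to 0.02; adjusted p = 0.36). The dimmer read 8463.0, 8310.3 and 8565.7 against 7738.6, 7554.0 and 7549.8 (-0.15 ± 0.05; 95% interval -0.26 to -0.04; adjusted p = 0.097). As a percentage of the non-pregnant mean the differences were -5.38% and -9.85%. With quantile normalization the dimmer probe set had -0.19 and passed (adjusted p = 0.035), and with each array centred on its median the brighter had 0.00 and the dimmer -0.07.

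Insm1, a zinc-finger transcriptional repressor that endocrine cells need in order to develop, was not called in either probe set. The brighter had 6335.6, 6202.6 and 5860.5 against 5690.4, 6318.0 and 5424.7 (log2 difference -0.08 ± 0.07; 95% interval -0.23 to 0.07; adjusted p = 0.55). The dimmer had 4182.4, 4514.1 and 4588.5 against 3958.0, 4603.2 and 4312.0 (-0.05 ± 0.07, adjusted p = 0.76; 0.03 with each array centred on its median). In both, pregnant replicate 2 lay within or just above the non-pregnant range and the groups overlapped.

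Among other transcription factors of islet cells, Mnx1 rose and St18, Mlxipl, Foxo1 and Zbtb20 fell. Of 14 tested, 1 rose and 4 fell, with a median log2 difference of -0.21, where 6.1% of all genes rose and 5.79% fell. The riser was Mnx1, a homeodomain factor needed for beta cells to form and keep their identity, with 1501.5, 1853.3 and 1691.5 in non-pregnant and 2657.9, 2690.4 and 2315.1 in pregnant islets. No array of one group reached the other, and the log2 difference was 0.60 ± 0.09 (adjusted p = 0.0015). St18, a zinc-finger factor of the Myt family, fell from 4628.9, 4568.8 and 4485.7 to 3150.7, 3203.5 and 3251.8 (-0.51 ± 0.06, adjusted p = 2.0e-04), and its other probe set fell too (-0.59 ± 0.08). Mlxipl, the glucose-sensing factor ChREBP, fell from 6840.1, 6769.8 and 7504.8 to 3855.5, 4266.6 and 5632.1 (-0.63 ± 0.11, adjusted p = 0.0037). Both were lower on all pregnant arrays than on any non-pregnant one, and for Mlxipl these spread more widely than the non-pregnant ones.

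Foxo1, a forkhead factor that insulin signalling moves out of the nucleus, fell in 2 of its 3 tested probe sets, by 0.39 ± 0.09 in the brightest (adjusted p = 0.014). The transcriptional repressor Zbtb20 fell in 2 of 9 probe sets, by 0.28 ± 0.07 in the brightest (adjusted p = 0.036). Foxo1 did not pass without non-pregnant replicate 2 (-0.36) or without pregnant replicate 1 (-0.39, adjusted p = 0.051). Zbtb20 did not without non-pregnant replicate 2 (adjusted p = 0.13) or without pregnant replicate 1, 2 or 3 (0.096, 0.096 and 0.11). Hnf4a, a nuclear receptor of the pancreas and liver, had -0.31 ± 0.13 in its brightest probe set (adjusted p = 0.16), with positive values in 2 of its dimmer ones. With each array centred on its median 2 of the list fell, and without the variance trend 0 rose and 1 fell, St18 (Mnx1 had an adjusted p of 0.061 and Mlxipl 0.098).

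Among 11 tested factors of progenitors and of other pancreatic lineages, 1 rose and 2 fell, where 6.1% of all genes rose and 5.79% fell. The median log2 difference was -0.35. Neurog3, which starts endocrine differentiation in progenitors, read 516.2, 570.5 and 506.1 against 403.9, 366.0 and 295.9. All pregnant arrays lay lower (-0.57 ± 0.13, adjusted p = 0.020), while a dimmer probe set had -0.27 ± 0.29. Its adjusted p was 0.072 when non-pregnant replicate 2 was dropped and 0.069 when pregnant replicate 3 was dropped. Irx1, a factor of alpha cells, fell by 0.40 ± 0.11 (adjusted p = 0.033), with adjusted p-values of 0.051 to 0.11 when any 1 array other than pregnant replicate 1 was left out. The secretory cell factor Bhlha15 rose by 1.18 ± 0.09 in its brighter probe set. Its dimmer one had 0.80 ± 0.29 and was not called (adjusted p = 0.12). Acinar factors are in this list, and the summed acinar markers given above were lower on the pregnant arrays. Bhlha15 went the opposite way. The acinar factor Ptf1a had -0.75 ± 0.31 (95% interval -1.43 to -0.07, adjusted p = 0.17), with overlapping groups. Nr5a2 had -0.06 ± 0.35 (adjusted p = 0.94). Ptf1a and Nr5a2 were named after their values were seen. A link between the acinar markers and the factors was not tested. Pax4, an early beta cell factor, was under the filter at 3.8 to 51.7.

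**Figure D4:**
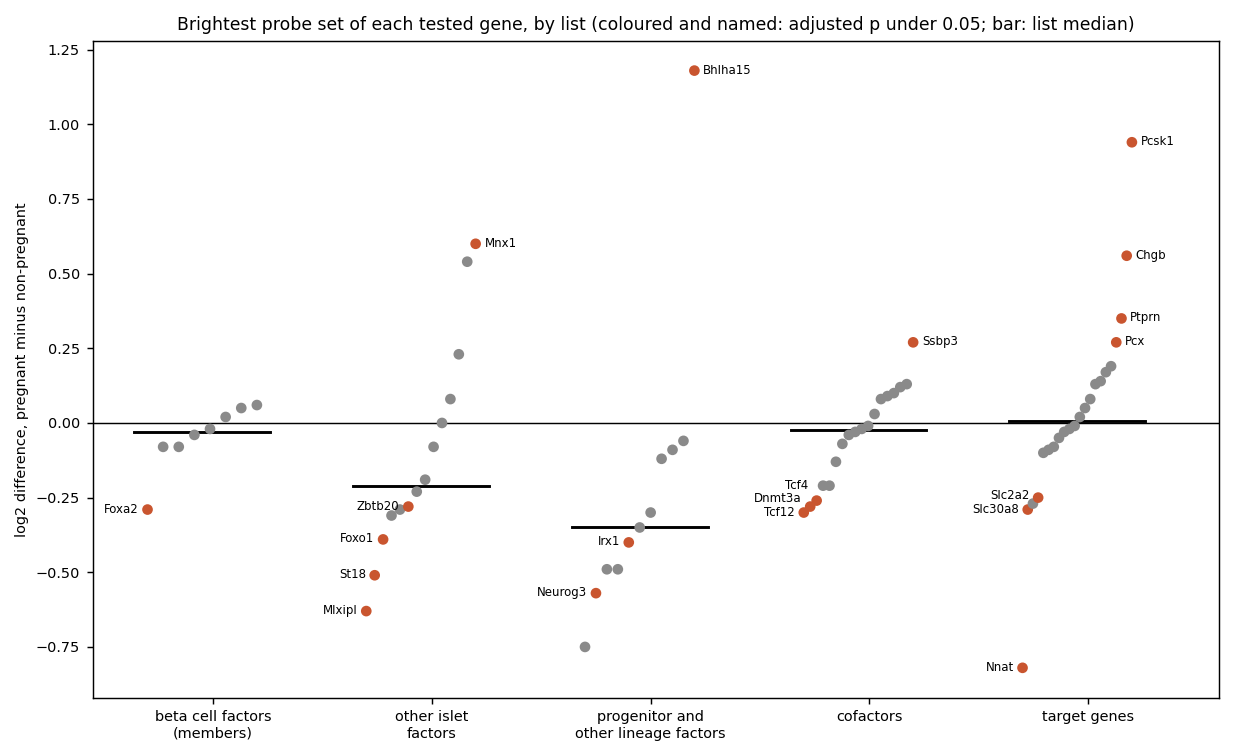
Log2 difference (vertical axis, pregnant minus non-pregnant) of the brightest probe set of each tested gene in 5 lists; coloured and named points have an adjusted p under 0.05 and bars are list medians. The 8 beta cell factors lie between -0.29 and 0.06, and the other islet factors between -0.63 and 0.60.

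Cofactors are proteins that bind the factors or work beside them on chromatin. Of 18 tested, 1 rose and 3 fell (median -0.03), where 6.1% of all genes rose and 5.79% fell. The fallers included Tcf12 and Tcf4, E proteins that pair with Neurod1 on DNA. Tcf12 read 1850.0, 1818.7 and 1899.1 against 1612.6, 1541.6 and 1369.5 (-0.30 ± 0.08, adjusted p = 0.036; lower in 1 of 3 tested probe sets). Tcf4 read 2122.1, 2130.9 and 1886.9 against 1733.2, 1647.3 and 1717.9 (-0.26 ± 0.08, adjusted p = 0.048; lower in 2 of 5 tested probe sets, the other by 0.38 ± 0.09 with an adjusted p of 0.017). The groups did not overlap in the brightest probe set of either gene. The DNA methyltransferase Dnmt3a fell by 0.28 ± 0.08 in its brightest probe set (adjusted p = 0.049) and by 0.51 ± 0.10 in another of its 5 (adjusted p = 0.0074). Ssbp3, which stabilises Ldb1 complexes, rose by 0.27 ± 0.08 (adjusted p = 0.04999). Ldb1 itself had -0.21 ± 0.11 (adjusted p = 0.26), with 568.8, 586.2 and 651.7 against 504.4, 545.1 and 499.8. Counted by the brightest probe set, with any 1 array left out 0 rose and 0 to 1 fell, and with each array centred on its median 0 fell.

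Genes that the factors are known to drive went in both directions. Of 22 tested, 4 rose and 3 fell, with a median log2 difference of 0.00, where 6.1% of all genes rose and 5.79% fell. The risers were the prohormone convertase Pcsk1 (0.94 ± 0.07), the granule protein Chgb (0.56 ± 0.05), the granule phosphatase-like protein Ptprn (0.35 ± 0.07, adjusted p = 0.0078) and the pyruvate carboxylase Pcx (0.27 ± 0.08, adjusted p = 0.047). Pcx was named after its value was seen, and with any 1 array left out its adjusted p was 0.053 to 0.17. Ptprn read 1634.6, 1684.9 and 1582.5 against 2074.3, 2042.5 and 2136.8, with every pregnant array higher. Nnat, a small endoplasmic reticulum proteolipid needed for insulin processing, fell from 462.2, 417.1 and 519.0 to 328.9, 241.2 and 209.2 (-0.82 ± 0.17, adjusted p = 0.0085).

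Slc2a2, the glucose transporter whose promoter is printed above, read 22989.7, 23410.0 and 24317.2 against 19954.6, 20003.8 and 19668.8 (-0.25 ± 0.05, adjusted p = 0.0063). The pregnant arrays were all lower and close together. With each array centred on its median it had -0.17 (adjusted p = 0.24). The zinc transporter Slc30a8, which loads insulin granules, fell by 0.29 ± 0.06 (adjusted p = 0.010). Its adjusted p was 0.13 with that centring and 0.055 without pregnant replicate 2.

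Iapp, the amyloid peptide secreted with insulin, had 51080.1, 51190.8 and 47043.5 against 51107.1, 50407.8 and 49982.7 in its brightest probe set (0.02 ± 0.05, adjusted p = 0.84), and 0 of its 4 probe sets were called. Those signals are close to the highest of an array, where a change could be missed. Ins2 was read by 1 probe set, with 18872.3, 20497.0 and 16958.2 against 18172.6, 21728.4 and 21629.5 (0.13 ± 0.08, adjusted p = 0.40) and overlapping groups. Its signals lay well below those of Iapp, and how fully that probe set follows insulin RNA was not tested. Ucn3, a peptide of mature beta cells, read 14160.3, 15365.6 and 13573.4 against 15894.4, 16176.3 and 15336.8 (0.14 ± 0.06, adjusted p = 0.17), with overlapping groups. Without the variance trend 2 target genes rose and 0 fell, and the adjusted p was 0.084 for Ptprn and 0.077 for Nnat.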

How the data were processed

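Islet RNA from 3 non-pregnant and 3 pregnant mouse samples was hybridised to Affymetrix arrays. The table deposited by the authors holds linear intensities (MAS5, per the submitters' processing notes). The version and settings of MAS5 are unknown here. No depth exists for arrays, and their number limits the precision. All arrays had the same 2% trimmed mean, so none was normalized further. The 64 control probe sets were left out.

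Values were taken as log2(signal + 16), which understates changes of dim genes. The brightest 60% of probe sets (by mean log2 value, signal above 50.5) were fitted with limma 3.58.1 in R 4.3.3 (lmFit, eBayes with a variance trend, 2-sided, no covariate, 4 residual degrees of freedom). The fit was run on simulated data whose spreads were drawn from the fit itself, which checks the code and not the calls reported here. Errors of differences are limma's SE and 95% intervals. Errors of signals are SD.

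The platform annotation gave 34958 probe sets 1 symbol and 932 several, and did not name 9211; those with several were never named. A gene was represented by its brightest probe set. The members and lists were chosen with earlier results of these data known. Named genes were all members, up to 6 called genes with the smallest adjusted p from each list, and preset genes of interest. Some preset genes are not reported here. Alternatives were pseudocounts of 1 and 64, quantile normalization, median centring, no filter, a top 40% filter, robust eBayes, eBayes with no variance trend, weighted arrays, a replicate block, leaving out each array in turn, and the mean of a gene's probe sets. Plots used Python 3.11.15 with matplotlib 3.10.9.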

Additional observations from a re-analysis of the deposited data

How the results depend on the processing

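Foxa2 was negative under all 17 alternatives and passed under 10. The fallers among the 16 probe sets of the factors numbered 2 with quantile normalization and 0 with median centring, with no filter and without the variance trend, and 0 to 1 with any 1 array left out; by gene, 0 were called in these last 3 settings and 0 to 1 with any 1 array left out. The genes' median log2 difference was -0.07 with quantile normalization, 0.04 with median centring and -0.09 with probe sets averaged. Of the other islet factors, 0 rose without the trend, 2 fell with median centring, 1 without the trend, and 2 to 4 with any 1 array left out. Of the progenitor and other lineage factors, 1 fell with quantile normalization, 0 with median centring or without the trend, and 0 to 3 with any 1 array left out. Among cofactors 0 rose with a pseudocount of 1, no filter, no trend, array weights or averaged probe sets, and with any 1 array left out; 1 fell with quantile normalization and with averaged probe sets, 0 with median centring, no filter or no trend, and 0 to 1 with any 1 array left out. Of the target genes 2 rose and 0 fell without the trend, and 1 fell with median centring. Over all probe sets 2587 were called, 603 without the trend and 1482 to 2259 with any 1 array left out (1482 without pregnant replicate 1, 1577 without pregnant replicate 2).

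Some differences changed sign, none of them past the threshold before or after. As reported, the dimmest Pax6 probe set had -0.56 and Hnf4a -0.31, and the others were small. Median centring gave 0.03 for Isl1 (brighter), 0.05 for Pax6 (the brightest and the middle one of its 5 probe sets), and 0.03 for Insm1 (dimmer), and quantile normalization gave -0.04 for Nkx6-1 and 0.05 for that middle Pax6 probe set. Averaging probe sets gave 0.13 for Hnf4a and -0.06 for Iapp. With 1 array left out Nkx2-2 ran from -0.03 to 0.11, the middle Pax6 probe set from -0.10 to 0.07, the dimmest from -1.0 to 0.02, the dimmer Insm1 probe set from -0.10 to 0.01 and Iapp from -0.02 to 0.04.

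Samples that share a replicate number did not visibly deviate together (correlations of -0.027, -0.066 and 0.028 over tested probe sets). Samples with unlike numbers had -0.041 to 0.068. The labels do not say whether the numbers mark pairs, and so few arrays cannot settle it. With the replicate number as a block, the members had 1 faller, Foxa2 at an adjusted p of 0.013, the progenitor and other lineage list 1 faller, and the cofactors 0 risers and 1 faller. The causes of these changes were not tested. The number of arrays and, for the 3 dim Pax6 probe sets, signals near background limit the precision.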

Other observations

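The spread of some factors between arrays was smaller than the fit assumed, and that of others, Foxa2 among them, was larger. The dimmer Neurod1 probe set had an SE of 0.02 for its log2 difference from its own 6 values, against 0.05 in limma, which draws each spread towards that of probe sets of like brightness. For the brighter Neurod1 probe set the values were 0.02 and 0.05, and for Nkx6-1 they were 0.03 and 0.06. The brightest probe sets of Isl1 (0.03 and 0.05) and Pax6 (0.02 and 0.05) also had the smaller own SE. Foxa2, the member that was called, had an own SE of 0.09 against 0.07 in limma. The own SE was also the larger for Nkx2-2 (0.09 and 0.08) and both Pdx1 probe sets (0.08 and 0.07, 0.15 and 0.14). The same held for the dimmer probe sets of Isl1 (0.09 and 0.07) and Insm1 (0.08 and 0.07), and the dimmest of Pax6 (0.64 and 0.47). In 8 of the 16 probe sets the own SE, to 2 decimals, was below limma's. With 3 arrays against 3, an exact permutation test cannot go below a 2-sided p of 0.1, so groups that do not overlap, as in both Neurod1 probe sets, reach that value and no lower one.

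Abcc8 and Kcnj11 encode the subunits of the ATP-sensitive potassium channel and are known targets of Foxa2, and neither was called. The Abcc8 probe sets had log2 differences of -0.10 ± 0.06 (limma adjusted p = 0.34) and -0.13 ± 0.06 (adjusted p = 0.22). The Kcnj11 probe sets had 0.19 ± 0.08 (95% interval 0.02 to 0.37, adjusted p = 0.16) and, in the dimmer one, -0.20 ± 0.21 (adjusted p = 0.63). Every pregnant array was higher in the brighter Kcnj11 probe set and lower in the dimmer Abcc8 one, and groups overlapped in the others. Groups did not overlap in 27.7% of all tested probe sets. Both genes were named after their values were seen.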
